A study of Mus musculus with 4 samples.

Results

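The expression of 10 genes known for their response to peripheral nerve injury (Atf3, Jun, Stat3, Smad1, Sox11, Gap43, Sprr1a, Flrt3, Csf1 and Gadd45a) was examined in dorsal root ganglia of the mouse, which hold the cell bodies of sensory neurons beside the spinal cord. The genes were chosen by name, with earlier results of these data known. Every probe set of the array whose annotation gives 1 of these symbols was taken. That made 25 of the 45101 probe sets, for 10 of the 18193 genes named on the array. RNA from freshly dissected ganglia was hybridised to 4 Affymetrix mouse arrays, with 2 arrays for one spinal level and 2 for another. After the titles, these are named the sample-1 level and the sample-2 level below. The labels do not name the levels and list no injured, treated or mutant group, and they state no strain, age or sex of the mice. Nothing in the labels ties the arrays of a level to separate animals. Each p-value rests only on spread between arrays, of the probe set and of others of like intensity, and that spread may be technical. The data therefore bear on the basal signal of these genes and on a difference between levels, not on an injury.

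When the axon of a sensory neuron is cut, retrograde signals along the axon switch on a set of transcription factors in the cell body, among them ATF3, c-Jun, STAT3, SMAD1 and SOX11. These factors act together on genes for growth cone proteins, surface receptors and secreted signals, and the neuron enters a state in which it can regrow its axon. Several of the genes, such as Gap43, are also on in intact adult sensory neurons, whereas Atf3 and Sprr1a are widely used as markers of injured ones.

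No member passed the test for a difference between levels. In limma, 0 of the 24 tested member probe sets reached an adjusted p of 0.05 (Benjamini-Hochberg over all 27022 probe sets tested), where 0.622% of all probe sets passed, and 4 had an unadjusted p under 0.05, against 10.9% of all. Of the 4, those of Sprr1a and Atf3 were lower at the sample-2 level (5.53% of all), and 1 each of Stat3 and Smad1 was higher there (5.33% of all). The arrays of the levels did not overlap for 13 of the 24, of which 11 were higher at the sample-2 level and 2 lower, whereas 41.2% of all tested probe sets did not overlap, 21.1% higher and 20.1% lower. The median difference, as log2(intensity + 16) at the sample-2 level minus the sample-1 level, was 0.07 over the member probe sets and 0.00458 over all. The median size of a difference, whatever its sign, was 0.12 and 0.13. The 95% interval of the difference on the log2(intensity + 16) scale lay within 2-fold for 23 of the 24, all but Sprr1a, and for 94.0% of all probe sets. Fold bounds here and below are on that scale, which makes differences of dim probe sets smaller than the true ratio. With 1 added in place of 16, the difference was -0.60 ± 0.19 for Atf3 and -1.05 ± 0.34 for Sprr1a (log2 ± SE), so the bounds depend on that setting. Probe sets of one gene share its transcripts, so the 24 are not independent.

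**Figure D1:**
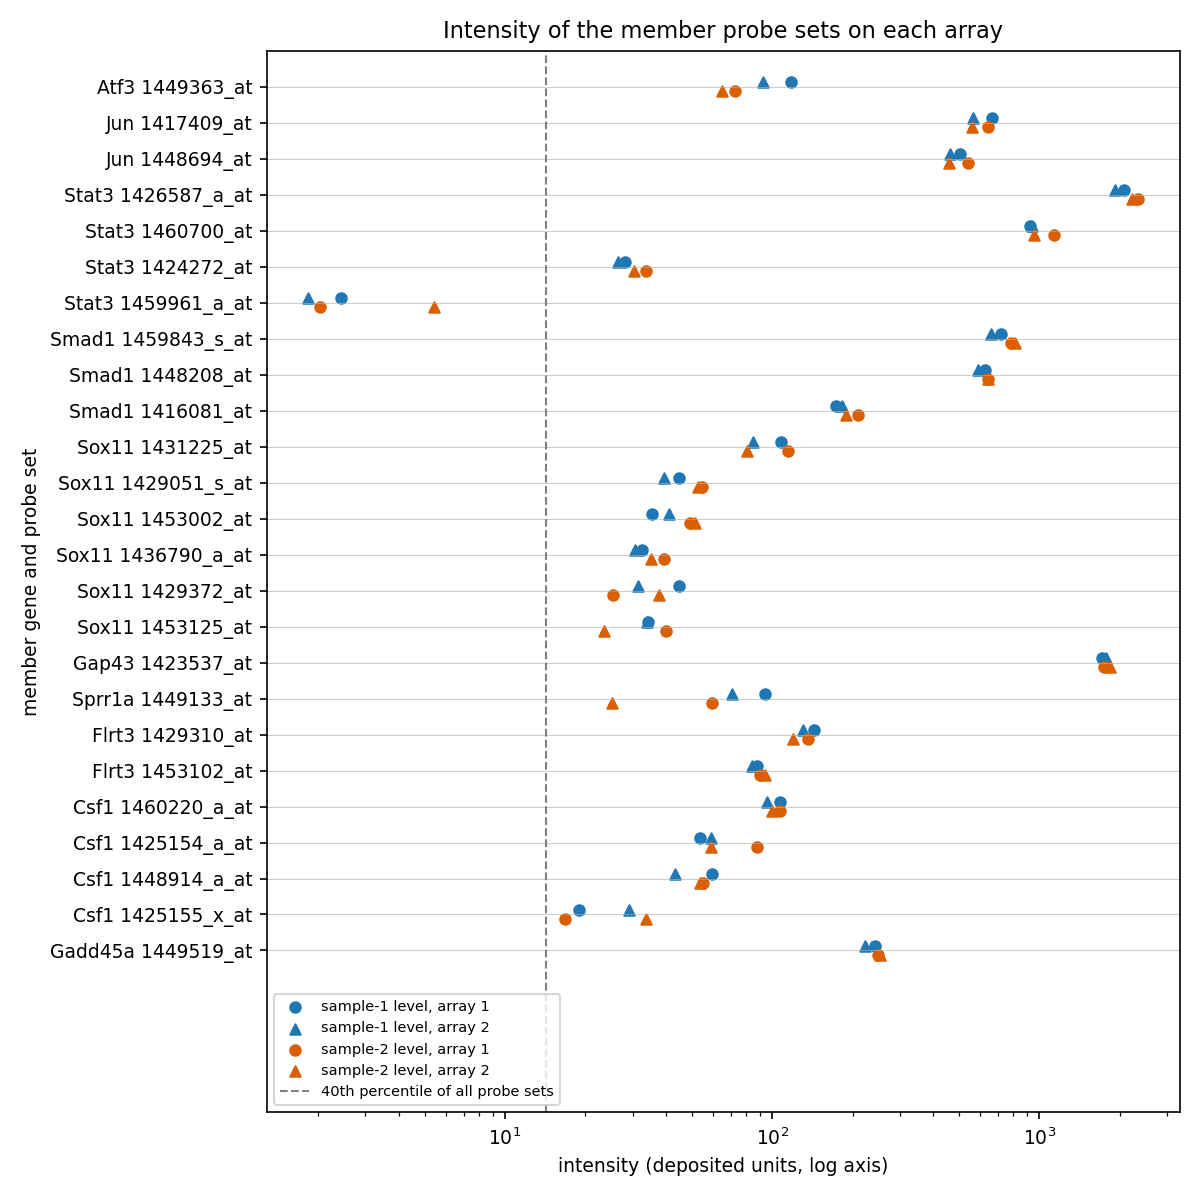
Deposited intensity (log axis) of the 25 member probe sets on each of the 4 arrays, with blue for the sample-1 level, orange for the sample-2 level, circles for array 1 and triangles for array 2. The dashed line is the filter level of 14.3; 1 probe set of Stat3 lies under it on every array, and the arrays of the levels are set apart most visibly for Sprr1a and Atf3.

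The arrays were alike in scale, with a median intensity of 25.9 to 27.3, and correlated at r = 0.987 within each level and 0.982 to 0.986 between levels across tested probe sets. The 16 tested markers of sensory neurons summed to an intensity of 61460 and 62853 at the sample-1 level and 65288 and 61241 at the sample-2 level. Of these 16 genes 2 passed, in opposite directions, and 5 had an unadjusted p under 0.05 (limma), against 12.3% of all genes. Pvalb, a calcium-binding protein of proprioceptive neurons, fell from 1484 ± 377 to 461 ± 65.3, and Tac1, the precursor of substance P, rose from 3487 ± 87.0 to 4376 ± 120.1 (SD, n = 2 each; limma, adjusted p = 0.000397 and 0.0463). Pvalb did not pass without the filter on low values or without the intensity trend (limma, adjusted p = 0.132 and 0.362), and Tac1 did not pass without either sample-1 array or without sample-2 array 2 (0.13, 0.245 and 0.138). Over all alternatives the adjusted p ranged from 1.87e-10 to 0.362 for Pvalb and from 0.00655 to 1 for Tac1. Sums over markers of some other cells differed between the levels. Those over 12 markers of fibroblasts, meninges and perineurium were 16302 and 14317 at the sample-1 level against 9776 and 9239, those over 9 markers of myelinating Schwann cells 21407 and 19157 against 18345 and 14170, and those over 9 neutrophil markers 3398 and 4065 against 6845 and 8579. On these lists 6 of 12, 2 of 9 and 7 of 9 genes passed at an adjusted p of 0.05 (limma), the first 2 lists with lower and the last with higher genes at the sample-2 level. Over all genes 0.842% passed, 0.295% as higher and 0.546% as lower at that level. The 15 skeletal muscle markers summed to 10154 on sample-1 array 2 and to between 1523 and 2310 on the others. All 15 lay below 0, 9 had an unadjusted p under 0.05 (limma, against 12.3% of all genes) and 1 passed as lower at the sample-2 level. The 4 tested red cell markers summed to 1378 and 1467 against 1518 and 1574. Of these 3 lay above 0, 2 had an unadjusted p under 0.05 (limma) and 1 passed as higher at the sample-2 level. The 10 tested satellite glial markers summed to 17305 and 17428.5 against 17440 and 16116, with overlap between levels. The 10 endothelial markers summed to 1166 and 1126 against 1118 and 940. On both lists 0 genes passed, while 9 and 7 lay below 0. In limma 4 and 1 had an unadjusted p under 0.05, against 12.3% of all genes. The part of these cells, or of kinds of sensory neuron, in any member's values was not tested. In whole ganglia, fewer cells of a type and less RNA per cell cannot be told apart.

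Sprr1a encodes a small proline-rich protein of the cornified layer of skin that injured sensory neurons also make, where it promotes axon growth. Its 1 probe set (1449133_at) measured 94.3 on array 1 and 70.6 on array 2 of the sample-1 level, and 59.4 on array 1 and 25.2 on array 2 of the sample-2 level. All values of the sample-2 level lay below those of the sample-1 level, but the sample-2 arrays differed from each other by more than the levels' nearest arrays did. The value of 25.2 on sample-2 array 2 lay at the 48.7th percentile, under that array's median intensity of 27.3, and no detection call was used. The level means were 82.4 ± 16.8 (SD, n = 2) and 42.3 ± 24.2 (SD, n = 2), a ratio of 1.95 in favour of the sample-1 level. The difference of -0.81 ± 0.26 (log2 ± SE) was the largest among the members and did not pass (limma, adjusted p = 0.238, unadjusted 0.00888), with a 95% interval from 0.386-fold to 0.844-fold. The result rests on sample-2 array 2: without it the difference was -0.37 (limma, adjusted p = 0.657), and without sample-2 array 1 it was -1.25 and passed (limma, adjusted p = 0.0298), while the adjusted p ranged from 0.0213 to 1 over all alternatives.

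Sprr1a is also a gene of skin, and markers of the epidermis are given beside it. Of 10 keratinocyte and epidermis markers 7 lay under the filter level, among them Krt5, Krt14 and Trp63, and no probe set of these 7 exceeded 23.1 on any array. The 3 that were tested summed to 203 and 209 at the sample-1 level and 252 and 214 at the sample-2 level. Among them Krt1 had a difference of -0.12, Krt10 of 0.03 and Lor of 0.48, and none passed (limma, adjusted p = 0.906, 0.967 and 0.299). Their part in the values of Sprr1a was not tested. The relatives of Sprr1a gave little signal. Sprr1b, its nearest namesake, stayed between 0.965 and 4.71, Sprr2d, Sprr2f and Sprr2h stayed under 14.7, and Sprr3 reached 30.3 on its highest array. Of the 13 genes of small proline-rich proteins and the cornified envelope 9 were on the array, 2 were tested and 0 passed (with limma, 1 had an unadjusted p under 0.05, as did 12.3% of all 13543 genes tested). These were Lor, a structural protein of the envelope, at 51.6 ± 3.06 and 78.7 ± 10.5 (SD, n = 2 each; limma, adjusted p = 0.299), and Tgm3, a transglutaminase, at 33.4 ± 9.70 and 33.4 ± 7.36 (SD, n = 2 each; adjusted p = 0.995).

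Atf3 encodes a bZIP transcription factor that is switched on in sensory neurons by axon injury and pairs with c-Jun on DNA. Its 1 probe set (1449363_at) measured 117 and 92.8 at the sample-1 level and 72.3 and 65.0 at the sample-2 level. The levels did not overlap, and in each of them array 1 was the higher, as it was for Sprr1a. The means were 105 ± 17.4 and 68.7 ± 5.16 (SD, n = 2 each), a ratio of 1.53 in favour of the sample-1 level. The difference of -0.51 ± 0.16 did not pass (limma, adjusted p = 0.241, unadjusted 0.00925), and its 95% interval ran from 0.548-fold to 0.900-fold. The difference stayed below 0 with each array left out in turn, from -0.66 to -0.36, and did not pass in any of these fits (limma, adjusted p from 0.254 to 0.603).

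**Figure D2:**
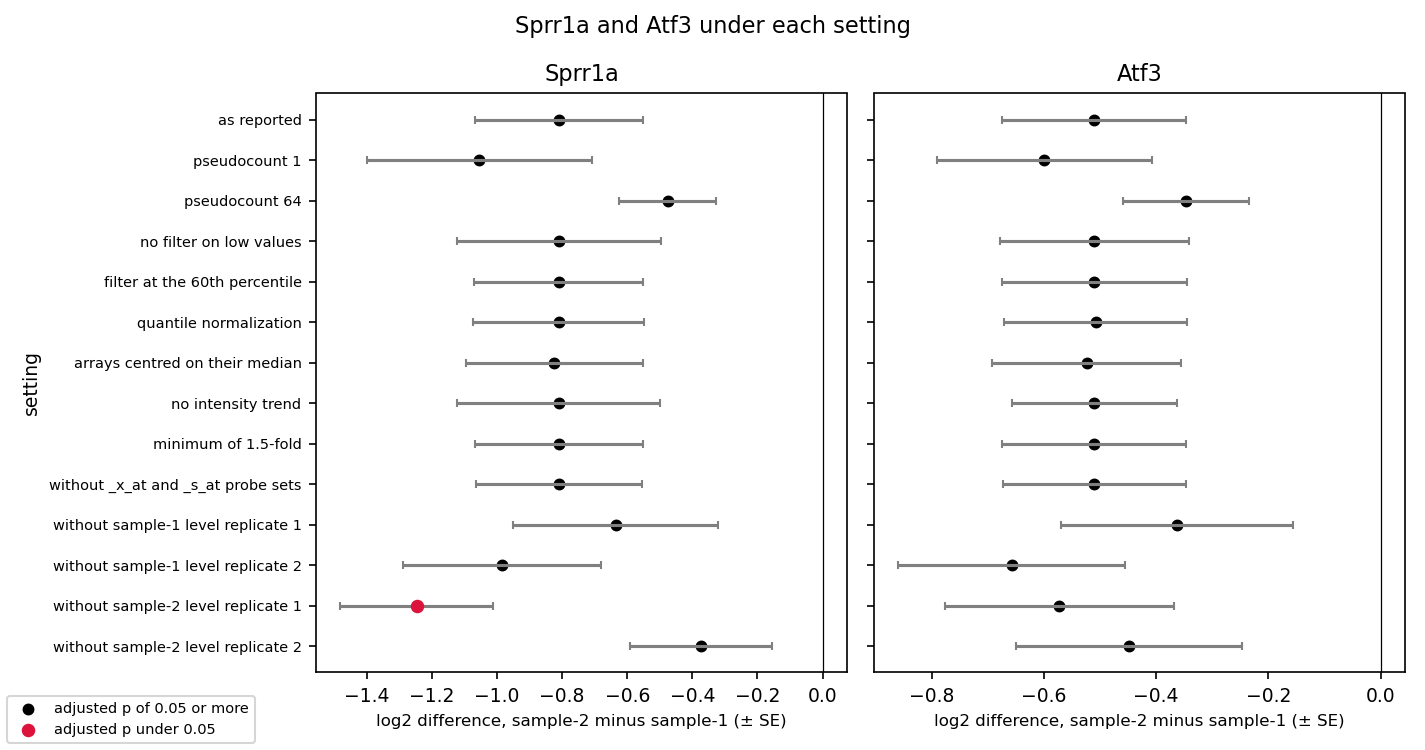
Difference between levels in log2 units, sample-2 level minus sample-1 level, with its standard error, for Sprr1a (left) and Atf3 (right) as reported and under the processing alternatives that have no block. The fit with the array number as a block, in which Sprr1a passed (limma, adjusted p = 0.0213), is not shown. Every value lies below 0, and the one red point, Sprr1a without sample-2 array 1 at -1.25, is the only one shown with an adjusted p under 0.05.

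Sprr1a and Atf3 were the members with the largest differences, both in the same direction, so the stretch in front of each gene is shown. The sequences are the 250 bases before the annotated start, 5′ to 3′ on the strand of the gene, from RefSeq (GRCm38.p6), at chr3:92485882-92486131 (minus strand) for Sprr1a and chr1:191183334-191183583 (minus strand) for Atf3. Capitals mark AP-1 sites and the TATA box in Sprr1a, and the short form of a cAMP response element in Atf3.
Sprr1a: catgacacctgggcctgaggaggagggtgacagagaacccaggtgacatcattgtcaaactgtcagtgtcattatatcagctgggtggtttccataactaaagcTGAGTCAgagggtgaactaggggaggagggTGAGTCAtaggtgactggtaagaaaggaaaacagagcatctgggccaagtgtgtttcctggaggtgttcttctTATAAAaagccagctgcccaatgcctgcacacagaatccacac
Atf3: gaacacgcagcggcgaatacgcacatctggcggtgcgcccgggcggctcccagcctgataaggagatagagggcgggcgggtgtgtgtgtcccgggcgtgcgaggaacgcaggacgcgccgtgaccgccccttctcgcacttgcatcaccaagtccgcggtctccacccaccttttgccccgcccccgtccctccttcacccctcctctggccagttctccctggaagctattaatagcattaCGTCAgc
Of the 10 members 9 had an entry in that table, all but Gap43. Both strands of the 250 bases were searched for 5 motifs. The AP-1 site TGACTCA, which reads TGAGTCA on the other strand and which c-Jun and its partners bind, was found in 1 of the 9 windows, that of Sprr1a, at bases -146 to -140 and -116 to -110 from the start; 4.46% of all 32851 windows held it. The TATA box TATAAA was also found in Sprr1a alone of the 9, at -43 to -38, against 12.4% of all. The short form TGACG, which reads CGTCA on the other strand and lies within the full element, was found in Atf3 at -7 to -3 and in Smad1 at -16 to -12, against 17.8%. The full cAMP response element TGACGTCA (1.55% of all windows) and the STAT site TTCCNGGAA (0.913%) were found in 0 of the 9. A match is a description of the letters only.

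Jun encodes c-Jun, the AP-1 subunit whose loss slows regeneration. Its probe set 1417409_at measured 663 and 567 at the sample-1 level and 641 and 560 at the sample-2 level. Its other probe set, 1448694_at, designed on the same transcript record, measured 506 and 462, then 540 and 459. In both, array 1 of a level exceeded array 2 and the levels overlapped. The differences were -0.03 ± 0.11 and 0.04 ± 0.11 (limma, adjusted p = 0.953 and 0.938), with 95% intervals from 0.831-fold to 1.15-fold and from 0.873-fold to 1.21-fold. The AP-1 partners Fos at 92.3 ± 5.65 and 100.3 ± 15.5 and Junb at 81.9 ± 2.08 and 95.3 ± 14.7 (SD, n = 2 each) did not pass either (limma, adjusted p = 0.880 and 0.752). Among 22 AP-1 and ATF/CREB factors 19 were tested and 0 passed (with limma, 3 had an unadjusted p under 0.05, against 12.3% of all genes), with a median difference of 0.02. The largest difference was that of Batf, a factor mainly of lymphocytes, at 17.3 and 43.2 and then 4.02 and 5.71 (limma, adjusted p = 0.189), and Maff, a small MAF protein, followed at 33.9 ± 4.70 and 24.3 ± 11.1 (adjusted p = 0.695). The sample-2 values of Batf lie under the filter level, so its fitted difference depends on the pseudocount. Of 15 genes of the DLK and JNK cascade, which activates c-Jun, 13 were tested and 0 passed (with limma, 0 had an unadjusted p under 0.05); the phosphatases Dusp16 at 127 ± 28.2 and 103 ± 17.6 and Dusp10 at 52.5 ± 11.8 and 41.8 ± 3.21 had the largest differences (adjusted p = 0.650 and 0.738).

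Stat3 encodes the transcription factor that carries signals of the interleukin-6 family from the axon to the nucleus. Its probe set 1426587_a_at measured 2076 and 1922 at the sample-1 level and 2347 and 2222 at the sample-2 level. The sample-2 arrays were the higher ones, and the difference of 0.19 ± 0.07 did not pass (limma, adjusted p = 0.355, unadjusted 0.0243). Probe set 1460700_at measured 920.1 and 942 against 1133 and 955, and 1424272_at, much dimmer, 28.2 and 26.6 against 33.6 and 30.5. Their differences were 0.16 ± 0.09 and 0.15 ± 0.22 (limma, adjusted p = 0.595 and 0.866), so that 3 of 3 tested probe sets lay above 0 without overlap between levels, as did 21.1% of all tested probe sets, and none passed. The fourth, 1459961_a_at, stayed between 1.83 and 5.41 and was the 1 member probe set that was not tested. The widest of the 3 intervals, that of the dim probe set, ran from 0.798-fold to 1.54-fold.

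Genes of the cytokine pathway that STAT3 belongs to were described alongside. Of 26 cytokines, receptors and JAK-STAT genes 23 were on the array, 17 were tested and 0 passed (with limma, 3 had an unadjusted p under 0.05, against 12.3% of all genes), 13 lay above 0 and the median difference was 0.07. Osmr, the oncostatin M receptor, measured 361 ± 41.1 and 479 ± 43.0, and Socs2, a feedback inhibitor of cytokine signalling, 433 ± 13.1 and 559.9 ± 44.8 (SD, n = 2 each; limma, adjusted p = 0.179 and 0.164). Lifr, the receptor for leukaemia inhibitory factor, measured 3047 ± 323 and 3746 ± 18.3, and Il6st, the shared chain gp130, 957 ± 257 and 995 ± 47.9 (limma, adjusted p = 0.129 and 0.892). Genes of the ligands Il6, Lif, Clcf1 and Il11 lay under the filter.

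Smad1 encodes an effector of bone morphogenetic protein (BMP) signalling that supports axon growth of sensory neurons. Its probe set 1459843_s_at measured 716 and 657 at the sample-1 level and 785 and 814 at the sample-2 level, 1448208_at 627 and 589 against 640.2 and 642, and 1416081_at 173 and 182 against 210.1 and 188. All 3 were higher on both sample-2 arrays, as were 21.1% of all tested probe sets, and the 3 share the transcripts of one gene. The differences were 0.22 ± 0.09, 0.07 ± 0.09 and 0.15 ± 0.12 (limma, adjusted p = 0.401, 0.831 and 0.722). The first has a suffix (_s_at) that allows more than 1 transcript to match, and its interval from 1.01-fold to 1.33-fold was the 1 of the 3 that left out no change. Of 25 BMP ligands, receptors and SMAD genes 24 were tested and 0 passed (with limma, 7 had an unadjusted p under 0.05, against 12.3% of all genes), with 11 above and 13 below 0. Bmp7, a ligand, measured 50.7 ± 11.1 and 26.0 ± 7.50, and Bmpr1b, a type I receptor, 26.2 ± 0.119 and 49.2 ± 14.7 (SD, n = 2 each; limma, adjusted p = 0.268 and 0.315). Bmpr2, the type II receptor, measured 1732 ± 133 and 1984 ± 95.3, and Smad5, the close relative of Smad1, 84.2 ± 8.22 and 94.2 ± 19.9 (adjusted p = 0.391 and 0.846).

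Sox11 encodes a SOXC transcription factor of developing and regenerating neurons, and its 6 probe sets did not move as one. The brightest, 1431225_at, measured 108 and 85.0 at the sample-1 level and 114 and 80.7 at the sample-2 level. It gave a difference of 0.0055 ± 0.18 (limma, adjusted p = 0.995), with array 1 higher than array 2 in both levels. Probe sets 1429051_s_at, at 44.7 and 39.3 against 54.6 and 52.9, and 1453002_at, at 35.4 and 41.1 against 49.2 and 51.6, were designed on one sequence record and were higher on both sample-2 arrays, by 0.27 ± 0.18 and 0.29 ± 0.19. Probe sets 1429372_at, at 44.6 and 31.5 against 25.3 and 37.9, and 1453125_at, at 34.2 and 33.9 against 40.2 and 23.5, were designed on another record and gave -0.19 ± 0.23 and -0.09 ± 0.23, with overlapping levels. The last, 1436790_a_at, at 32.6 and 30.6 against 39.2 and 35.3, gave 0.16 ± 0.21. It was also higher on both sample-2 arrays, as were 21.1% of all tested probe sets. No probe set of Sox11 passed (limma, adjusted p from 0.629 to 0.995), and the widest interval, that of 1453125_at, ran from 0.661-fold to 1.34-fold. Sox4, another SOXC gene, measured 697 ± 35.2 and 731 ± 11.4 (SD, n = 2 each; limma, adjusted p = 0.842). All 13 other SOX genes on the list were tested and 0 passed (with limma, 1 had an unadjusted p under 0.05, against 12.3% of all genes). The largest differences were those of Sox3, at 17.7 ± 2.57 and 28.7 ± 1.75, and of Sox10, the factor of Schwann and satellite glial cells, at 581 ± 38.2 and 439 ± 71.0 (limma, adjusted p = 0.581 and 0.192).

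**Figure D3:**
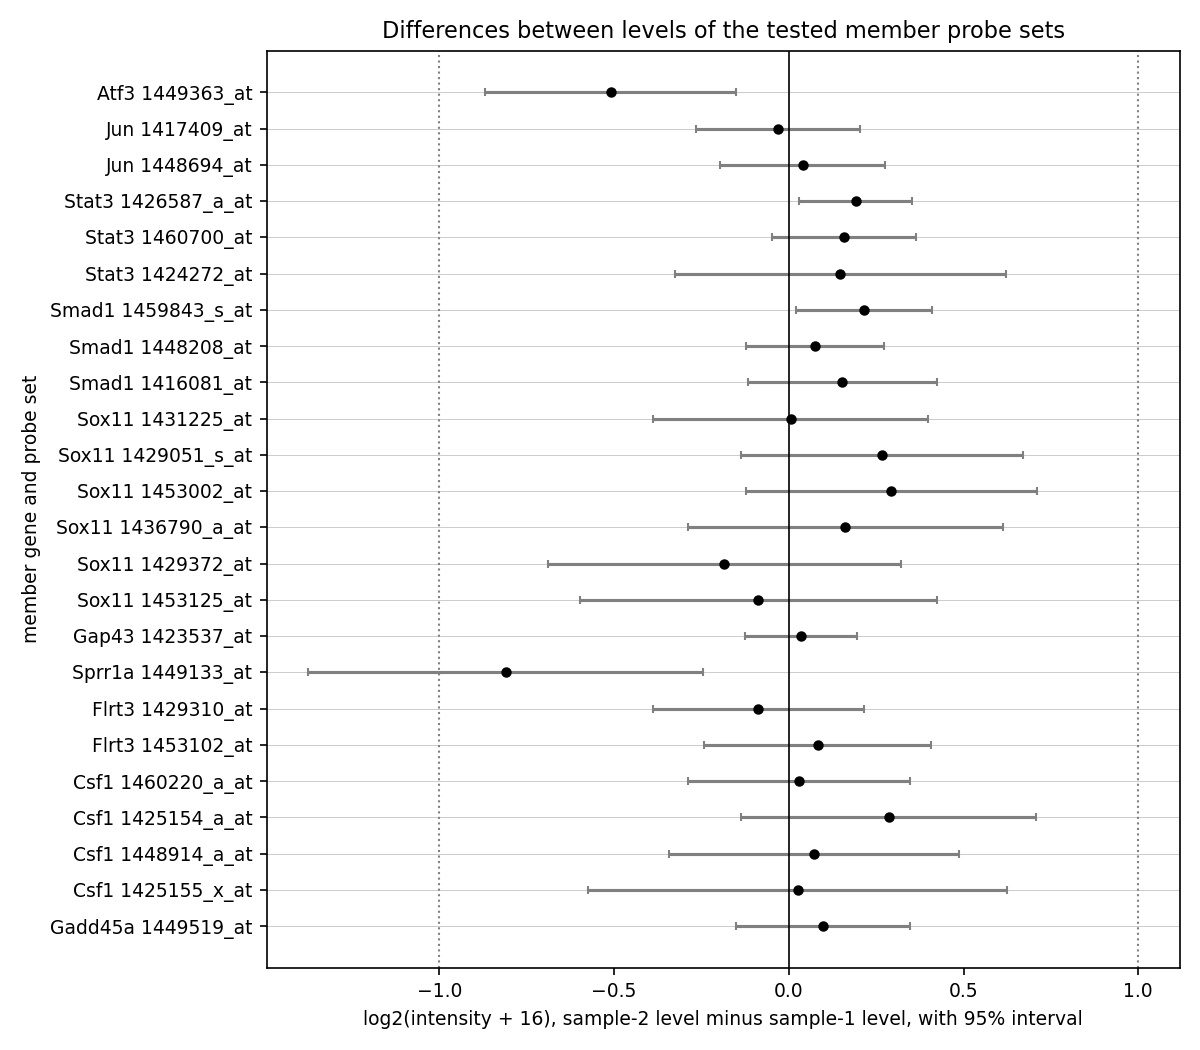
Difference between levels of the 24 tested member probe sets in log2(intensity + 16) units, sample-2 level minus sample-1 level; points are the estimates, bars their 95% intervals from limma, and dotted lines mark 2-fold. The interval of Sprr1a alone crosses a dotted line, and those of Sprr1a, Atf3, Stat3 1426587_a_at and Smad1 1459843_s_at do not cross 0.

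Gap43 encodes a protein of the growth cone membrane that adult sensory neurons keep making. Its 1 probe set (1423537_at) was the steadiest of the members, at 1721 and 1781 for the sample-1 level and 1744 and 1843 for the sample-2 level, with a highest value 1.07 times the lowest. The levels overlapped. The difference of 0.03 ± 0.07 (limma, adjusted p = 0.917) had an interval from 0.916-fold to 1.15-fold. The signal lay between the 97.2nd and the 97.5th percentile of all probe sets of its array. Among 26 growth cone and axon growth genes 25 were tested and 0 passed (with limma, 3 had an unadjusted p under 0.05, against 12.3% of all genes), while 19 lay above 0 and the median difference was 0.10, against -0.0059 over all 13543 genes tested. Basp1, which resembles GAP-43 in its membrane role, measured 4025 ± 41.2 and 4328 ± 219 (SD, n = 2 each; limma, adjusted p = 0.613). Gprin1, a G protein-regulated inducer of neurite outgrowth, measured 37.0 ± 14.3 and 58.5 ± 8.65 (adjusted p = 0.430). L1cam, an adhesion protein of growing axons, measured 2365 ± 46.3 and 3090.0 ± 272 and lay just outside the threshold (adjusted p = 0.0512). It passed with quantile normalization (limma, adjusted p = 0.0393) and without sample-2 array 2 (0.0246), and over all alternatives its adjusted p ranged from 0.0028 to 1.

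Flrt3 encodes a leucine-rich repeat protein of the cell surface that binds latrophilins and UNC5 receptors. Its 2 probe sets were designed on one record and pointed in different directions. Probe set 1429310_at measured 143 and 131 at the sample-1 level and 137 and 119.8 at the sample-2 level, and 1453102_at measured 88.0 and 84.3 against 90.3 and 94.1. The first overlapped between levels and the second did not, yet their differences of -0.09 ± 0.14 and 0.08 ± 0.15 were of like size (limma, adjusted p = 0.877 and 0.897). All 12 genes of the FLRT family, latrophilins, teneurins and UNC5 receptors were tested and 0 passed (with limma, 0 had an unadjusted p under 0.05). Flrt2 measured 99.6 ± 1.68 and 87.4 ± 11.3, Tenm4, a teneurin, 91.5 ± 10.6 and 68.7 ± 17.3, and Unc5d 19.6 ± 3.87 and 28.9 ± 0.410 (SD, n = 2 each; limma, adjusted p = 0.763, 0.517 and 0.657).

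Csf1 encodes the colony-stimulating factor that injured sensory neurons send to microglia and macrophages. Its brightest probe set, 1460220_a_at, measured 107 and 95.4 at the sample-1 level and 107 and 100.04 at the sample-2 level, a difference of 0.03 ± 0.15 (limma, adjusted p = 0.970). Probe set 1425154_a_at measured 53.6 and 59.1 against 87.8 and 58.8, so that sample-2 array 1 stood above the other 3. Its difference was 0.29 ± 0.19 (limma, adjusted p = 0.649), and 0.05 without that array. Probe sets 1448914_a_at and 1425155_x_at gave 0.07 ± 0.19 and 0.03 ± 0.27, and the latter, at 18.9 and 29.1 against 16.7 and 33.8, differed more between arrays of a level than between levels. All 4 overlapped between levels. The receptor gene Csf1r, a marker of macrophages, measured 407 ± 5.40 and 314 ± 23.0, and Il34, the other ligand of that receptor, 143 ± 29.9 and 88.9 ± 4.67 (SD, n = 2 each; limma, adjusted p = 0.190 and 0.152). Of 12 genes of this receptor and of macrophage recruitment 8 were tested, 0 passed (with limma, 2 had an unadjusted p under 0.05, against 12.3% of all genes) and 7 lay below 0. The median difference of 11 macrophage markers tested was -0.31, against -0.0059 over all genes. Of these markers 0 passed, 6 had an unadjusted p under 0.05 (limma, against 12.3% of all genes) and 8 lay below 0. Their summed intensity was 1607 and 1756 at the sample-1 level and 1586 and 1614 at the sample-2 level, and includes Lyz2, a lysozyme, which went the other way at 496 ± 48.5 and 667 ± 64.2 (SD, n = 2 each; limma, adjusted p = 0.129).

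Gadd45a encodes a stress protein that is induced by DNA damage and, in sensory neurons, by axotomy. Its 1 probe set (1449519_at) measured 243 and 223 at the sample-1 level and 249 and 252 at the sample-2 level. The sample-2 arrays were higher by little, with a difference of 0.10 ± 0.11 (limma, adjusted p = 0.820) and an interval from 0.900-fold to 1.27-fold. Its relative Gadd45b measured 155 and 183.5 against 102 and 106, means of 169 ± 20.1 and 104 ± 2.77 (SD, n = 2 each). The levels of Gadd45b did not overlap, and its difference of -0.62 ± 0.14 did not pass (limma, adjusted p = 0.0784). Cdkn1a, the p53 target p21, measured 601 ± 81.4 and 443 ± 129 (limma, adjusted p = 0.307, but 0.0298 without sample-2 array 1, in a range from 0.00775 to 1 over all alternatives). Of 15 genes of the GADD45 family and the p53 response 13 were tested and 0 passed (with limma, 2 had an unadjusted p under 0.05, against 12.3% of all genes), with a median difference of 0.0082.

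Of 26 other genes known to be induced in injured sensory neurons 22 were tested and 0 passed (with limma, 3 had an unadjusted p under 0.05, against 12.3% of all genes), with 13 above and 9 below 0 and a median of 0.04. Gal, the neuropeptide galanin, measured 308 and 365 at the sample-1 level against 448 and 472 at the sample-2 level, without overlap (difference 0.44 ± 0.11; limma, adjusted p = 0.123, and from 0.0126 to 1 over all alternatives). This is the reverse of the direction of Atf3 and Sprr1a. Sez6l, a membrane protein of neurons, measured 49.2 ± 18.0 and 29.4 ± 2.16 (SD, n = 2 each; limma, adjusted p = 0.472). Of 20 immediate early genes, which respond to handling of tissue within minutes, 16 were tested and 0 passed (with limma, 2 had an unadjusted p under 0.05, against the same 12.3%), with 11 below 0. Nr4a1 measured 316 ± 72.2 and 236 ± 33.6, and Klf4 108 ± 5.10 and 80.9 ± 6.39 (SD, n = 2 each; limma, adjusted p = 0.369 and 0.411). Among 20 genes listed as regulators of intrinsic growth 16 were tested and 0 passed (with limma, 4 had an unadjusted p under 0.05, against the same 12.3%). Dlk1, which is not the kinase DLK named above, measured 32.1 ± 5.85 and 15.5 ± 9.79, and Myc 101 ± 14.6 and 134 ± 1.41 (SD, n = 2 each, with limma adjusted p = 0.428 and 0.375).

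Of 14 genes of the repair Schwann cell, the state that Schwann cells take up in a cut nerve, 10 were tested and 1 passed, lower at the sample-2 level, where 0.546% of all genes passed as lower. The gene was Shh, a secreted signal that sensory neurons make as well. It measured 744 and 723 at the sample-1 level and 524 and 493 at the sample-2 level, and fell by 0.52 ± 0.09 on the log2 scale (limma, adjusted p = 0.0313). When single arrays were omitted, its adjusted p ran from 0.0454 to 0.135 and missed the threshold for 3 of the 4, namely each sample-1 array and sample-2 array 2. It was 0.221 without the filter on low values, 0.429 without the intensity trend, and from 0.000803 to 1 over all alternatives.

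**Figure D4:**
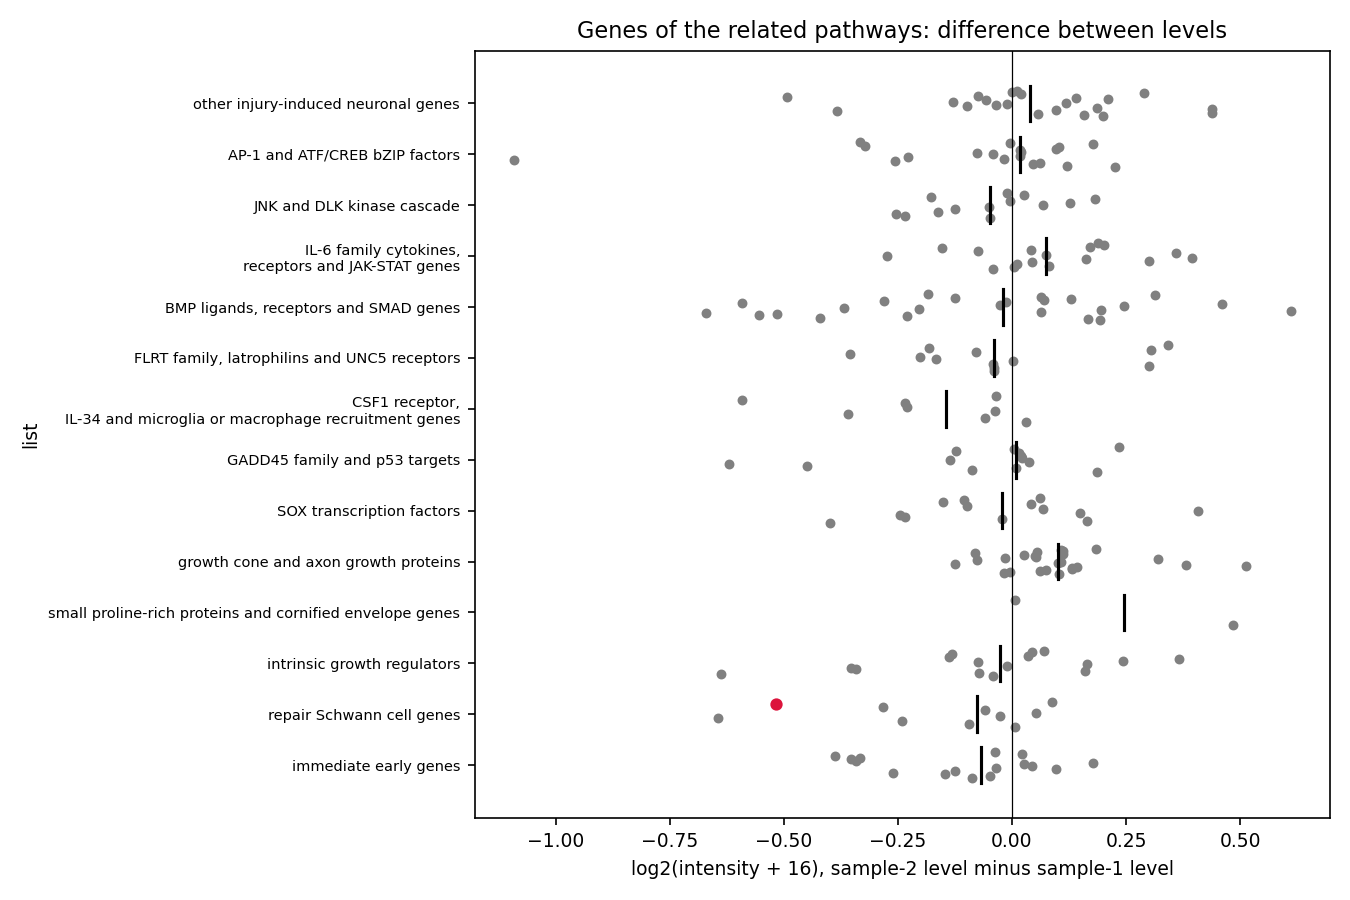
Difference between levels in log2(intensity + 16) units, sample-2 level minus sample-1 level, of each tested gene on the 14 pathway lists, by its brightest tested probe set; black bars are list medians and the red point passed an adjusted p of 0.05. The red point, Shh at -0.52 on the repair Schwann cell list, is the only one, and the medians of the lists lie between -0.14 and 0.25, the latter over 2 genes.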

How the data were processed

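Linear intensity values, 1 per probe set and array, were used as deposited; neither the software nor the way probes were summarised and scaled is stated by the labels. Each array had a mean of 150.0 after trimming 2% at each end. Genes were named from the platform annotation; a probe set with several symbols was not used. The deposited intensity was taken as log2(intensity + 16), which makes differences of dim probe sets smaller than the true ratio. Probe sets under the 40th percentile of the mean (intensity 14.3) and the 64 controls were left out. The others were fitted with limma 3.58.1 (R 4.3.3; lmFit, eBayes with an intensity trend, 2 residual and 9.71 prior degrees of freedom), two-sided, sample-2 level minus sample-1 level, with no covariate and an adjusted p of 0.05 as threshold. With 2 arrays a level, the number of arrays limits the precision, and no detection call was used. The fit was tested on simulated data.

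The 10 members and the 24 lists (360 genes, 292 of them tested) were chosen with earlier results of these data known, so no list is independent support. A gene on a list is represented by its brightest tested probe set. For each of the 14 pathway lists the genes past the threshold, up to 4, or otherwise the 2 with the largest difference were named, with some partners of the members; Pvalb, Tac1 and Lyz2 were named after their values were seen. Alternatives were the pseudocount, the filter, the normalization, the array number as a block, a fit without the trend, probe sets without _x_at and _s_at, a minimum of 1.5-fold, the mean of a gene's probe sets, and each array left out in turn. The minimum of 1.5-fold tests another hypothesis than the other fits. A range of adjusted p over all alternatives therefore mixes different tests.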

Additional observations from a re-analysis of the deposited data

How the results depend on the processing

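The 24 tested member probe sets gave 326 values under the alternatives; 309 kept their direction and their side of the threshold, 15 changed sign without passing, and 2 passed, both those of Sprr1a. The array number does not clearly pair the arrays: deviations of same-numbered arrays from their level means correlated at r = 0.0263 across probe sets, and the labels give only a number. With the array number as a block, 1 member probe set passed (Sprr1a, adjusted p = 0.0213), 793 of all probe sets and 53 list genes, against 0, 168 and 20 without it. Gal (adjusted p = 0.0126), Gadd45b (0.0127), Lifr (0.0176), Osmr (0.0218), Sox10 (0.0283), Socs2 (0.0324), Il34 (0.0358), Batf (0.0427), Lyz2 (0.00809), Cdkn1a (0.00775) and L1cam (0.0028) were among these list genes. Leaving out each array in turn gave 0 to 1 member probe sets, 102 to 241 of all, and 13 to 27 list genes. Without the filter on low values 4 probe sets and 0 list genes passed (75 with an unadjusted p under 0.05 in limma), without the intensity trend 1 and 0 (61 unadjusted), with a minimum of 1.5-fold 10 and 3, and with arrays centred on their medians 104 probe sets. The 60th percentile filter kept 17 of the 24. Without the trend 2 member probe sets had an unadjusted p under 0.05, and with a minimum of 1.5-fold 0 did. The cause was not tested, except that the minimum asks for more.

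Differences near 0 changed sign. With centred arrays Sox11 1431225_at was -0.0081 and Tgm3 -0.0066, and with quantile normalization Tgm3 was -0.0087. With 1 array omitted at a time the values ran from -0.14 to 0.079 and -0.074 to 0.15 for the Jun probe sets 1417409_at and 1448694_at, -0.21 to 0.22, -0.38 to 0.0054 and -0.34 to 0.17 for Sox11 1431225_at, 1429372_at and 1453125_at, -0.0052 to 0.074 for Gap43, -0.043 to 0.10, -0.10 to 0.25 and -0.28 to 0.33 for Csf1 1460220_a_at, 1448914_a_at and 1425155_x_at, -0.19 to 0.21 for Tgm3, -0.039 to 0.23 for Fos, -0.19 to 0.35 for Il6st and -0.057 to 0.31 for Smad5.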
